A study of Arabidopsis thaliana with 4 samples.

Results

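The genes described are the 5 MIKC* MADS-box genes of pollen of Arabidopsis thaliana, AGL30 (AT2G03060), AGL65 (AT1G18750), AGL94 (AT1G69540), AGL66 (AT1G77980) and AGL104 (AT1G22130). They were found in the tables by their gene identifiers, and the set was proposed with earlier results of these data known. Flower values were analysed for 3 of the 5, among 13311 genes with flower values in the 3 gene tables. AGL66 and AGL104 had values in all 4 libraries and AGL30 in the ndx1-4 libraries. AGL65 and AGL94 were not analysed here.

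Inflorescences of 5-week-old plants were compared between the ndx1-4 mutant and wild-type Col-0. The mutant carries a T-DNA insertion in NDX, a homeobox gene, in the same Col-0 background, and it is a single insertion line. Each genotype had 2 mRNA sequencing libraries, and each library was a pool of RNA from 5 inflorescences of different plants. Whole inflorescences hold pollen at several stages beside sepals, petals, carpels and stem, so that fewer pollen grains and less RNA per grain cannot be told apart.

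MADS-box proteins of the MIKC* type differ from the floral organ MADS proteins in the region between the DNA-binding MADS domain and the K domain. In Arabidopsis they form an S clade (AGL30, AGL65 and AGL94) and a P clade (AGL66 and AGL104), and a member of one clade pairs with a member of the other to bind DNA. The complexes act late in pollen development, where they are needed for the switch to the programme of mature pollen and for normal pollen germination. Their preferred site is the MEF2-type CArG-box, which has a longer run of A and T than the SRF-type box of other MADS proteins.

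All 5 genes are protein-coding in TAIR10, and no annotated gene overlaps any of them. AGL30 lies on the plus strand of chromosome 2 (901061 to 904149). AGL65 lies on the plus strand of chromosome 1 (6466667 to 6469984). The other members are on the minus strand of chromosome 1, with AGL94 at 26145001 to 26147751, AGL66 at 29314841 to 29317186 and AGL104 at 7812211 to 7814345. The longest coding sequence had 10 coding exons in AGL30, AGL65, AGL66 and AGL104 and 9 in AGL94, and its first exon carried 185 coding bases in each of the 5. The P-clade genes encode shorter proteins, of 332 residues in AGL66 and 335 in AGL104, against 386 in AGL30, 413 in AGL65 and 367 in AGL94.

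AGL66 and AGL104 were the closest pair, with 81.9% identical bases over 966 aligned coding bases. The S-clade pairs reached 62.7% to 64.9%, and pairs across the clades 61.9% to 64.3%. The closeness of AGL66 and AGL104 bears on the counts, since reads of close copies can be split between them. AGL66 shared 8 of its 1459 stretches of 31 bases, the unit by which Salmon matches reads, with another gene, and that gene was AGL104. No stretch of 75 bases, the length of a read, was shared, and AGL30 shared no stretch of either length with another gene.

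The promoter of AGL104 holds a MEF2-type CArG-box of its own. The box was searched as CTA, 4 bases of A or T, and TAG, on both strands of the 300 bases before the annotated gene start. Both P-clade promoters are shown because these are the members measured in all libraries, with the box in capitals, read towards the gene. They lie at chr1:7814346-7814645 and chr1:29317187-29317486 of TAIR10 on the minus strand.

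AGL104: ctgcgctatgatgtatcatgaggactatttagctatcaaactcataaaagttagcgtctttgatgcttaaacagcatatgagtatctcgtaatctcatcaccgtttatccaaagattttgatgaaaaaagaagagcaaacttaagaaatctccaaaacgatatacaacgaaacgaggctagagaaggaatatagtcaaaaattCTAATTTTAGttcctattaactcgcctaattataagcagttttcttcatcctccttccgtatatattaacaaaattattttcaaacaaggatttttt

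AGL66: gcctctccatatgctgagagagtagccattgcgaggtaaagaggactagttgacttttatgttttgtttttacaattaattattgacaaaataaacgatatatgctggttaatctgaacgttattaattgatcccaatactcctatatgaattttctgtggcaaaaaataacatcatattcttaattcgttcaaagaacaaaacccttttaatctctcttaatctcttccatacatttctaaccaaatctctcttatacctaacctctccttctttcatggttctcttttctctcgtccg

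In AGL104 the box begins 97 bases before the gene start. The windows of AGL66, AGL30, AGL65 and AGL94 held no box of this form, so that 1 of 5 members had one, and none of the 5 held the SRF-type box. Of all 27443 promoters of nuclear protein-coding genes of the same length, 694 or 2.53% held a MEF2-type box and 2.92% an SRF-type box.

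Promoters of genes that work in mature pollen and the pollen tube were read in the same way, as a description with no test. In a list of 27 such genes, 7 promoters (25.9%) had it, and 1 had an SRF-type box. None of the 8 pollen transcription factors listed, of the 7 sperm genes or of the 13 tapetum genes held a MEF2-type box. At the 2.53% of all promoters, lists this short can be without one. The 60 bases around the box are shown for the 7 late pollen genes, since AGL104 shares the form of the box with them, though not all of its letters.

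VGD1: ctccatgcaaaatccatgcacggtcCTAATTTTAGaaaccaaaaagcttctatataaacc
LRX9: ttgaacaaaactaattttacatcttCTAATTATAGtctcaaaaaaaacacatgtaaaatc
ACT12: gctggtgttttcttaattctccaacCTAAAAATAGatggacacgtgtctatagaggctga
BUPS2: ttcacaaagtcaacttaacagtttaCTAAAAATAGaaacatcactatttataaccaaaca
LRX10: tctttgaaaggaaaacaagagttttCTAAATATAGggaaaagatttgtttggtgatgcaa
BUPS1: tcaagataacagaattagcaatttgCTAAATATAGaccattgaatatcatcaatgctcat
AHA8: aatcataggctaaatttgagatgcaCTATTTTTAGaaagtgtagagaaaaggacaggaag

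VGD1 is a pectin methylesterase, LRX9 and LRX10 are leucine-rich repeat extensins of the pollen tube wall, and ACT12 is a reproductive actin. BUPS1 and BUPS2 are receptor kinases that keep the tube intact, and AHA8 is a proton ATPase. The boxes begin 57 (VGD1) to 160 (AHA8) bases before the gene start. The box of VGD1 alone has the same 10 letters as that of AGL104, CTAATTTTAG, and the other boxes differ from it among the middle letters. LRX10 has its box at the same distance from the start as AGL104, 97 bases. A match of letters does not show that a protein binds there.

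The libraries followed their labels. NDX (AT4G03090) had 73 and 108 counts in the ndx1-4 libraries and 430 and 525 in the Col-0 libraries. The genes of the tissue tables held between 10643722 and 13596752 estimated counts in a library.

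AGL30 was the most abundant of the 3 genes per length. This S-clade partner had 386 and 346 estimated counts in ndx1-4 replicates 1 and 2. That was 16.4 and 12.0 FPKM, a level per transcript length and library size, with the tables put on a common scale. Its mean was 14.2 ± 3.11 FPKM (SD, n = 2). It stood near the middle of its table, above 51.3% and 44.3% of the 11050 genes listed.

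AGL66 had 120 and 39 counts in ndx1-4 replicates 1 and 2, against 40 and 29 counts in Col-0 replicates 1 and 2. Its level was 6.48 and 1.77 FPKM in the ndx1-4 libraries and 2.38 and 1.45 FPKM in the Col-0 libraries. A single library, ndx1-4 replicate 1, stood above the other three, and the lower ndx1-4 library lay between the Col-0 libraries.

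AGL104 had 99 and 79 counts in ndx1-4 replicates 1 and 2, against 63 and 67 counts in Col-0 replicates 1 and 2. Its level was 5.61 and 3.79 FPKM in the ndx1-4 libraries and 3.97 and 3.53 FPKM in the Col-0 libraries. Here too ndx1-4 replicate 1 was highest and the genotypes overlapped, but over a narrower range than in AGL66.

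**Figure D1:**
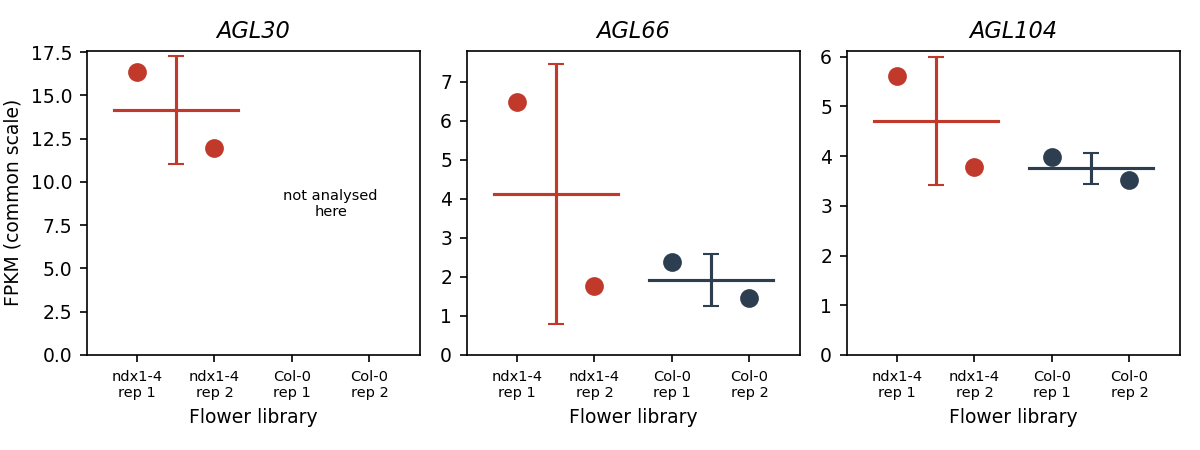
FPKM on the common scale (y axes differ between panels and start at 0) of AGL30, AGL66 and AGL104 in each flower library, with the mean and SD of each genotype (n = 2). AGL30 was at 16.4 and 12.0 FPKM in ndx1-4, above AGL66 and AGL104, and was not analysed in Col-0. For AGL66 and AGL104 ndx1-4 replicate 1 was the highest library, and for AGL30 it was the higher of the 2 ndx1-4 libraries.

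In ndx1-4 flowers the order of levels was AGL30, AGL104 and AGL66, with means of 14.2, 4.70 and 4.13 FPKM. Both values of AGL30 lay above all values of AGL66 and AGL104. AGL104 and AGL66 overlapped, with AGL66 higher in replicate 1 and AGL104 higher in replicate 2. In Col-0 flowers AGL104 was above AGL66 in both libraries, at 3.75 ± 0.315 and 1.92 ± 0.656 FPKM (SD, n = 2). AGL30 made up 57.5% and 68.3% of the summed FPKM of the 3 genes in ndx1-4 replicates 1 and 2, a mean of 62.9% ± 7.62 (SD, n = 2). The share of the whole S clade was not tested between genotypes.

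With genotype as the only term, neither P-clade gene differed between genotypes beyond the spread of replicates. In edgeR's quasi-likelihood test over 7981 genes, AGL66 had a log2 fold change of 1.09 ± 0.67 (SE) between ndx1-4 and Col-0, with a 95% interval of -0.63 to 2.82 and a Benjamini-Hochberg adjusted p of 0.412. AGL104 had a log2 fold change of 0.32 ± 0.28 (SE), with an interval of -0.40 to 1.05 and an adjusted p of 0.554. At an adjusted p below 0.01 none of the 2 genes was called, beside 7 of all genes tested (0.0877%), each higher in ndx1-4. With all 4 libraries and genotype as the only term, neither gene passed an unadjusted p of 0.05 (0.165 for AGL66 and 0.303 for AGL104 in edgeR), and the adjusted p from DESeq2 was 0.515 for AGL66 and 0.844 for AGL104. In this fit the interval of AGL66 includes both signs and reaches a fold of 7.07. With the replicate number as a block, its log2 fold change had an interval of 0.11 to 1.76. The edgeR unadjusted p was then 0.0309 and the adjusted p 0.139.

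The estimate of AGL66 rests on 1 library. Without ndx1-4 replicate 1 its log2 fold change was -0.10, and without ndx1-4 replicate 2 it was 1.75, with an unadjusted p of 0.0126 and an adjusted p of 0.278 in edgeR. For AGL104 these values were 0.02 and 0.58. The scaled counts of AGL66 averaged 68.6 ± 54.8 in ndx1-4 and 32.1 ± 11.2 in Col-0, and those of AGL104 averaged 74.4 ± 20.0 in ndx1-4 and 59.4 ± 5.15 in Col-0 (SD, n = 2 each). An exact permutation test over the libraries gave a 2-sided p of 0.667 for each gene, where 0.333 is the smallest that 2 against 2 libraries allow.

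Within ndx1-4, AGL66 was 3.60-fold higher in replicate 1 than in replicate 2 after scaling, with an exact binomial 95% interval of 2.49 to 5.32 that covers counting error only. Of 1393 genes of like depth, within a factor of 2 of its mean count, 1.44% differed as much between these libraries. AGL104 was 1.47-fold higher in the same direction (1.08 to 2.00), a size reached by 23.0% of 1445 genes of like depth, and AGL30 was 1.31-fold higher (1.13 to 1.52). Within Col-0 the ratio of replicate 1 to replicate 2 was 1.66 for AGL66 (1.003 to 2.77) and 1.13 for AGL104 (0.789 to 1.62). The replicates are separate pools of plants, whose spread these intervals do not cover.

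The balance within the P-clade pair does not depend on library scaling. AGL66 made up 54.8% of the counts of the pair in ndx1-4 replicate 1 (95% Clopper-Pearson interval 47.9% to 61.5%, 120 of 219 counts) and 33.1% in ndx1-4 replicate 2 (24.7% to 42.3%, 39 of 118 counts). In Col-0 it made up 38.8% (29.4% to 48.9%) and 30.2% (21.3% to 40.4%). The interval of ndx1-4 replicate 1 overlapped that of Col-0 replicate 1 and lay above the intervals of the other libraries. By genotype the share averaged 43.9% ± 15.4 in ndx1-4 and 34.5% ± 6.10 in Col-0 (SD, n = 2 each), a difference of 9.40 percentage points with an exact permutation p of 0.667. Without ndx1-4 replicate 1 the difference was -1.47 points, and without ndx1-4 replicate 2 it was 20.3 points. This share was taken up after the counts were seen.

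**Figure D2:**
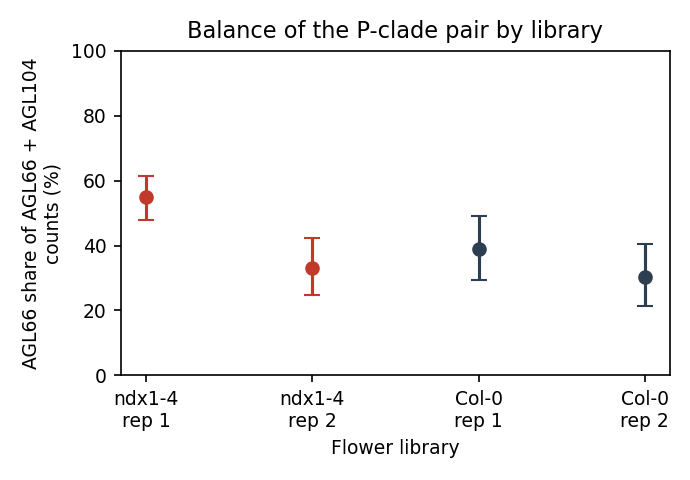
Share of AGL66 in the summed counts of AGL66 and AGL104 (y axis, percent) in each flower library, with 95% Clopper-Pearson intervals for counting error. The share was 54.8% in ndx1-4 replicate 1 and between 30.2% and 38.8% in the other libraries.

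Genes that act in mature pollen moved with the same libraries. Of the 27 late pollen and pollen tube genes, 26 had values in all libraries, and their summed scaled counts were 62487 and 47066 in ndx1-4 replicates 1 and 2, against 40221 and 34047 in Col-0 replicates 1 and 2. Within ndx1-4, 23 of the 26 were higher in replicate 1, with a median ratio of 1.50, and within Col-0 23 of 26 were higher in replicate 1, with a median ratio of 1.43. Over all genes tested these ratios were 1.01 in each genotype. AGL66 and AGL104 lay on the same side as most of the list in both pairs of replicates. In ndx1-4, 52.1% of all genes tested were also higher in replicate 1. In Col-0, 24.4% of genes of like depth differed between replicates as much as AGL66, and 69.9% as much as AGL104.

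The late pollen genes were mostly higher in ndx1-4, with a median log2 fold change of 0.64 over the 26, against 0.01 over all genes tested. Their list was chosen with earlier results of these data known. Of the 26, 24 had a positive log2 fold change, and 15 had both ndx1-4 libraries above both Col-0 libraries, beside 27.9% of all genes tested. Without 1 library this count was 15 to 24, but leaving a library out can only keep or raise it. That range therefore does not test the count. In the edgeR test none of the 26 passed an adjusted p of 0.01. At an unadjusted p below 0.05, 7 were higher and none lower, beside 10.6% of all genes that were higher at that limit. DESeq2 called 1, LRX10, named after its values were seen, with an adjusted p of 1.56e-07, beside 2.49% of all genes tested that DESeq2 called in either direction. LRX10 had 13182 and 16248 counts in ndx1-4 and 7384 and 7383 counts in Col-0, a log2 fold change of 0.84 ± 0.12 (SE) with an edgeR adjusted p of 0.0808.

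The ends of the list were BUPS2 and STP6. BUPS2 had 431 and 275 counts in ndx1-4 and 184 and 118 in Col-0, a log2 fold change of 1.08 ± 0.42 (SE) with an edgeR adjusted p of 0.258. STP6, a pollen hexose transporter, had 136 and 276 counts in ndx1-4 and 144 and 391 in Col-0, a log2 fold change of -0.50 ± 0.46 (SE) with an edgeR adjusted p of 0.579. It was lower in replicate 1 of both genotypes, unlike AGL66. VGD1, the most abundant gene of the list, had 16482 and 13801 counts in ndx1-4 and 9756 and 10575 in Col-0, and its log2 fold change was 0.45 ± 0.18 (SE).

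**Figure D3:**
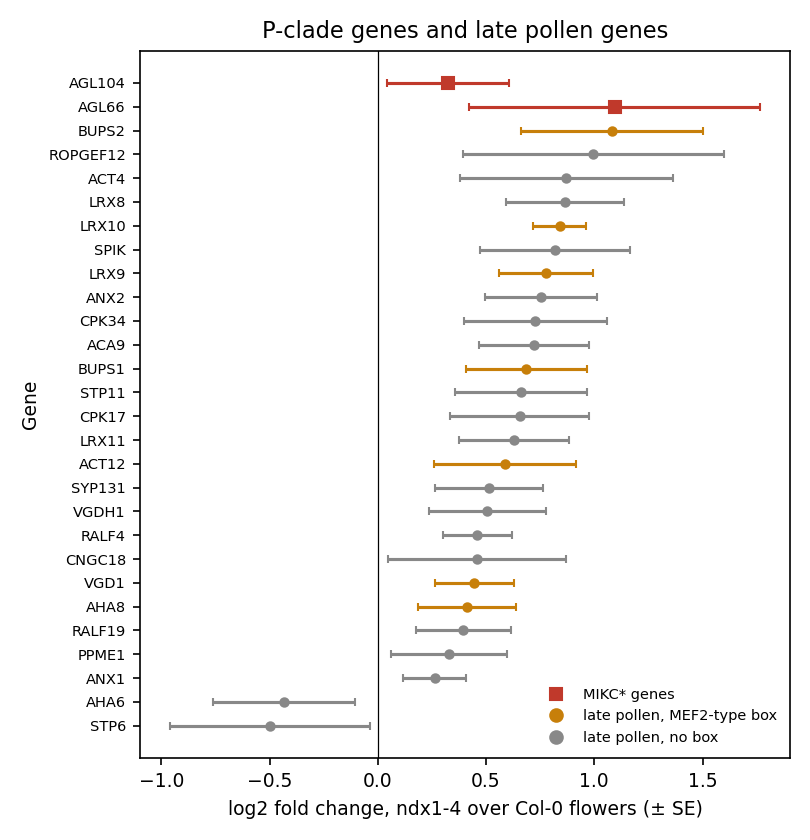
Log2 fold change of ndx1-4 over Col-0 flowers (x axis, ± SE from edgeR) of AGL66 and AGL104 (squares) and of the 26 late pollen genes (circles, coloured where the promoter holds a MEF2-type CArG-box). AGL66 (1.09) lies at the upper end beside BUPS2 (1.08), AGL104 (0.32) lies between ANX1 and PPME1 near the lower end, and STP6 and AHA6 are the 2 below 0.

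Set against the late pollen genes within a library, AGL104 varied over a narrower range than AGL66. AGL104 had 14.2 and 12.8 counts per 10000 counts of the list in the ndx1-4 libraries, against 15.7 and 16.4 in the Col-0 libraries. The ndx1-4 values were both the lower ones (13.5 ± 0.959 in ndx1-4 and 16.0 ± 0.495 in Col-0, SD, n = 2 each), with an exact permutation p of 0.333, the smallest possible. AGL66 had 17.2 and 6.33 counts per 10000 in the ndx1-4 libraries, against 9.95 and 7.08 in the Col-0 libraries, and the genotypes overlapped. These ratios take the late pollen list itself as the measure, and its median log2 fold change was 0.64, against 0.32 for AGL104.

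**Figure D4:**
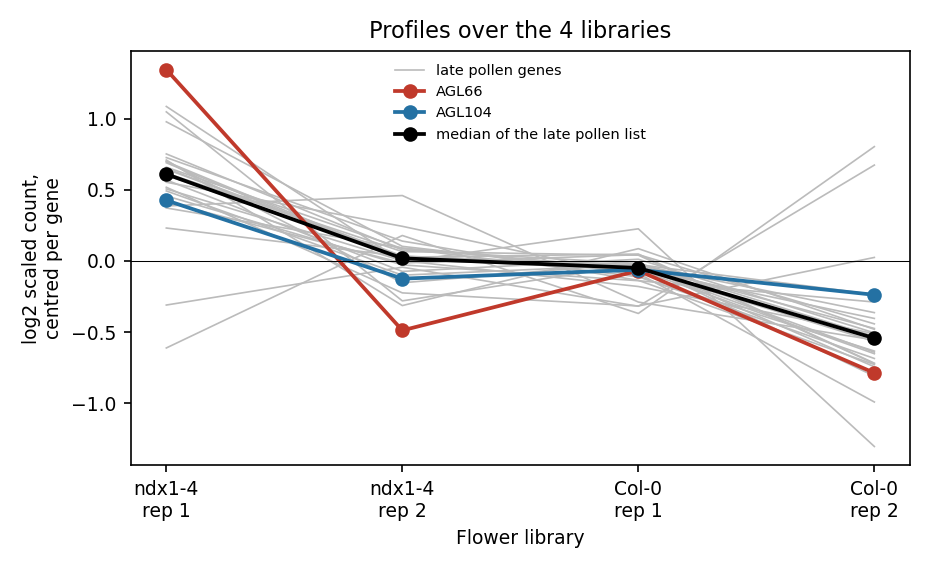
Log2 scaled count, centred per gene (y axis), of AGL66, AGL104, the 26 late pollen genes (grey) and their median (black) in the 4 flower libraries (x axis, lines join the values of a gene). The median of the list is 0.61, 0.02, -0.05 and -0.54 in ndx1-4 replicates 1 and 2 and Col-0 replicates 1 and 2, and AGL66 has 1.34, -0.49, -0.07 and -0.79.

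Other regulators of pollen, 4 transcription factors with values in all libraries, had a median ratio of replicate 1 to replicate 2 of 1.06 in ndx1-4 and 0.853 in Col-0. Replicate 1 was the higher for 3 of the 4 in ndx1-4 and for 1 in Col-0. The 1 was bZIP34, named after its values were seen, with 266 and 145 scaled counts in ndx1-4 and 198 and 169 in Col-0. AGL18, a MADS-box gene of the floral type that is active in pollen, had 511 and 566 counts in ndx1-4 replicates 1 and 2. Of the 8 pollen transcription factors, 4 were fitted, with a median log2 fold change of 0.07, none at an unadjusted p below 0.05 in edgeR and none called by DESeq2. MYB101, which acts in the pollen tube, had 714 and 778 counts in ndx1-4 and 429 and 683 in Col-0, a log2 fold change of 0.30 ± 0.15 (SE). WRKY34, a factor of early pollen, had 35 and 61 counts in ndx1-4 and 43 and 65 in Col-0, a log2 fold change of -0.31 ± 0.32 (SE).

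Markers of other cells of the flower were read beside the members. The 3 sperm genes with values in all libraries (7 listed) summed to 394 and 261 scaled counts in ndx1-4 and 321 and 246 in Col-0, with a median ratio of replicate 1 to replicate 2 of 1.84 in ndx1-4. DAZ3, a zinc finger gene of sperm, had 229 and 146 counts in ndx1-4 and 165 and 136 in Col-0, and was higher in replicate 1 of both genotypes. The log2 fold changes of the 3 lay between 0.08 (HTR10, a sperm histone) and 0.31 (GEX1).

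The 11 tapetum genes of 13 listed summed to 7159 and 8104 in ndx1-4 and 6157 and 5713 in Col-0, with a median log2 fold change of 0.25 and a median ratio of replicate 1 to replicate 2 of 0.949 in ndx1-4. All 11 had a positive log2 fold change, beside 4151 of the 7981 genes tested. For 7 of them both ndx1-4 libraries lay above both Col-0 libraries, beside 27.9% of all genes tested. MS2, a fatty acyl reductase of the tapetum, had 1836 and 2598 counts in ndx1-4 and 1051 and 1255 in Col-0, a log2 fold change of 0.79 ± 0.11 (SE) with an edgeR adjusted p of 0.0808. MS1, a tapetal regulator, was at 0.92 and TKPR1 at 0.05. The 6 carpel and ovule genes summed to 2501 and 3291 in ndx1-4 and 3649 and 3527 in Col-0, lowest in the library where AGL66 was highest. STK, a MADS-box gene of ovules, had 328 and 582 counts in ndx1-4 and 730 and 822 in Col-0, a log2 fold change of -0.93 ± 0.21 (SE) with an edgeR adjusted p of 0.132, beside -0.53 for SHP1 and 0.53 for SPT. None of the sperm, tapetum, carpel and ovule genes passed the adjusted threshold in edgeR, while DESeq2 called MS2 (adjusted p of 7.76e-05) and STK (adjusted p of 0.00709), 1 of 11 tapetum and 1 of 6 carpel and ovule genes, beside 2.49% of all genes tested. At an unadjusted p below 0.05 no sperm gene, 5 tapetum genes (higher) and 3 carpel and ovule genes (1 higher, 2 lower) were found, beside 10.6% of all genes tested that were higher and 8.7% that were lower at that limit. The part of the makeup of the tissue in the values of AGL66 and AGL104 was not tested.

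The genes whose profile over the 4 libraries was closest to the mean of AGL66 and AGL104 included known pollen genes. Genes averaging 50 counts or more were compared, 7055 in all, and the 5 nearest were FH3 (AT4G15200), AT3G59830, AT2G04285, RIC3 (AT1G04450) and AT3G52620, at Euclidean distances of 0.153 to 0.187 on the log2 scale, against a median distance of 1.08. FH3 is a formin of pollen tubes and RIC3 an effector of the ROP GTPase at the tube tip. FH3 had 207 and 121 counts in ndx1-4 and 102 and 85 in Col-0, and RIC3 had 105 and 61 in ndx1-4 and 53 and 42 in Col-0. AT2G04285 is annotated as a natural antisense transcript of AT2G02720, and without strand the reads of these genes cannot be told apart. The points of a profile share library and depth, and 4 points do not show shared control.

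Promoters were read for the 4 of these 5 that are protein-coding, and 1 held a MEF2-type box. It is that of AT3G52620, beginning 56 bases before the gene start, and the 60 bases around it are shown because it is the one with the box. FH3, AT3G59830 and RIC3 had none.

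AT3G52620: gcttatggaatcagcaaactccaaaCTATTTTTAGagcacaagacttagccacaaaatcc

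The share of promoters with the box was also read along the order of likeness. The order was by distance to the mean profile of AGL66 and AGL104, which is the profile of neither gene. In ndx1-4 replicate 1 the centred log2 value was 1.34 for AGL66 and 0.43 for AGL104. Of the 100 protein-coding genes closest to that mean, 11 held the box, and of the next 400 genes 48 (12.0%). Beyond rank 500 it was 149 of 6389 (2.33%). With the late pollen list left out the shares were 10.6%, 11.2% and 2.32%. The SRF-type box was in 7.0%, 3.0% and 2.79% of the full groups. With up to 1 mismatch the MEF2-type box was in 53.0%, 61.5% and 33.0% of them, a weaker contrast. The A and T content of the promoters was not compared between groups. The grouping by rank was made after the values were seen, and the genes of a group share a tissue, so the shares are a description.

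**Figure D5:**
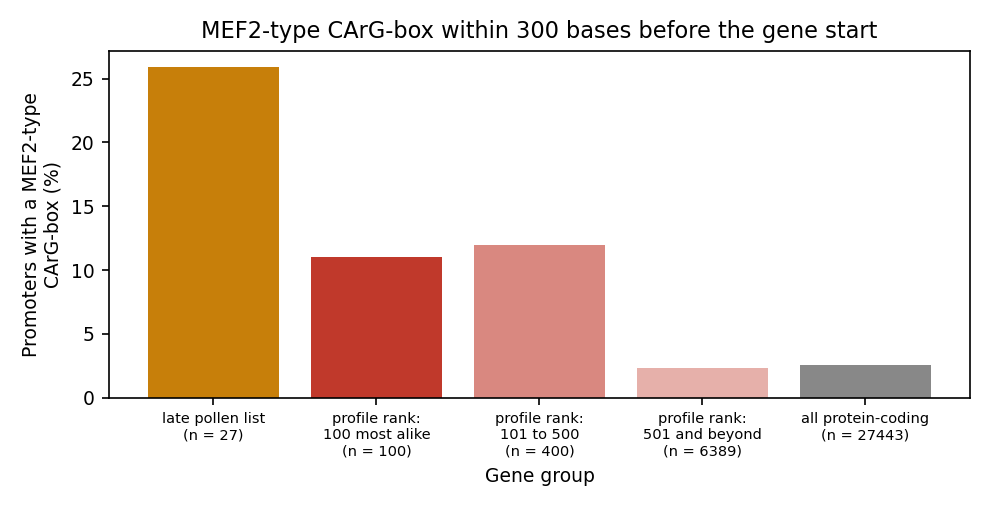
Share of promoters (y axis, percent) with a MEF2-type CArG-box in the 300 bases before the gene start, for the late pollen list, for genes ranked by likeness to the mean profile of AGL66 and AGL104, and for all protein-coding genes. The bars are at 25.9%, 11%, 12.0%, 2.33% and 2.53%.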

How the data were processed

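Per the labels and the study's methods, RNA of inflorescences was made into TruSeq v2 libraries and sequenced as single 75-base reads. The authors quantified reads with Salmon against Araport11 genes on TAIR10, with correction for GC content, and state that duplicates were left out by default. The authors deposited estimated counts as whole numbers, without normalisation. The FPKM values that the authors deposited are per effective length and scaled within each table. They were put on the scale of the genotype table by the median ratio of shared genes. Each table holds genes past the authors' threshold for its comparison, which for the tissue tables is flower against seedling, so genes outside it were not analysed here. Columns of the authors' fold changes and adjusted p were not used, and 8 columns of seedling samples of another series were not used. Use of strand in counting is not given in the sources used here.

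Flower counts were joined from both tissue tables (8961 genes). The scaling of each library was taken from the genotype table, as its median count over FPKM, for 314 genes with at least 50 counts in each library, and was 1.12 and 1.31 for ndx1-4 replicates 1 and 2 and 1.20 for Col-0 replicate 2, relative to Col-0 replicate 1. edgeR 4.0.16 (glmQLFit and glmQLFTest, R 4.3.3) was fitted with genotype as the only term to the 7981 genes averaging 10 counts or more, at a Benjamini-Hochberg adjusted p below 0.01. DESeq2 1.42.0 was an alternative. On simulated data for this comparison, with 7981 genes of which 200 were changed, recovery by edgeR was 53.8% at a 2-fold and 87.2% at a 4-fold change. Of its calls 4.60% were false. Recovery by DESeq2 was 64.8% at a 2-fold and 88.0% at a 4-fold change, and 8.39% of its calls were false. Each of these shares of false calls is above the adjusted p of 0.01 used. Simulated libraries varied independently, and recovery was taken over genes of all depths, not at the depth of AGL66 and AGL104. A pseudocount of 0.5 was added to scaled counts before log2 in profiles. Counting intervals are at 95% and cover counting error only, as PCR copies were not marked by molecular identifiers.

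Promoters, exons and stretches shared between genes were read from RefSeq TAIR10.1, in which all 11098, 10963 and 411 nuclear genes of the Col-0 tissue, ndx1-4 tissue and genotype tables had identical coordinates. Members and lists were chosen with earlier results of these data known. Genes to be named were the members, of each list the most abundant gene and those with the highest and lowest fold change at a mean of at least 50 counts, and the 5 nearest profiles. The lists also held 5 floral organ identity genes (median log2 fold change -0.11, with SEP3 at -0.11, AP1 at 0.42 and AG at -0.23), 5 green tissue genes (-0.12, with CAB1 at -0.12, PSBO1 at -0.03 and LHCB2.1 at -0.44, LHCB2.1 being called by DESeq2 alone) and 2 further MIKC* genes, AGL33 and AGL67, with no values analysed here, as for AGL29. Python 3.11.15, pandas 2.3.3, numpy 2.4.6, scipy 1.17.1, biopython 1.88 and matplotlib 3.10.9 were used.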

Additional observations from a re-analysis of the deposited data

How the results depend on the processing

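The adjusted p of AGL66 and AGL104 stayed above 0.01 under every alternative run, with adjusted p from edgeR or DESeq2 of 0.139 to 0.944 for AGL66 and 0.442 to 0.979 for AGL104. AGL66 turned to -0.10 without ndx1-4 replicate 1. With 1 library left out, where the lone library of a genotype is assumed to vary like the other, the log2 fold change ranged from -0.10 to 1.75 in AGL66 and from 0.02 to 0.58 in AGL104, and their median from -0.036 to 1.16. The median of a list ranged from 0.31 to 0.90 for late pollen, -0.054 to 0.19 for pollen transcription factors, -0.32 to 0.46 for sperm, 0.19 to 0.37 for tapetum, -0.14 to 0.0043 for floral organ identity, -0.59 to -0.13 for carpel and ovule, and -0.28 to 0.045 for green tissue. Of 70 alternatives for list medians, 65 kept the sign. The cause of these moves was not tested. The difference in AGL66 share ranged from -1.47 to 20.3 percentage points, and the count of late pollen genes with both ndx1-4 libraries higher from 15 to 24 (without ndx1-4 replicate 2, 24; without Col-0 replicate 1, 23). The alternatives for these 2 values were chosen after seeing the data, and leaving out a library can only keep or raise the count.

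The 7 genes called became 199 with DESeq2, 22 with the genes of the genotype table added and 0 without any 1 library (872 to 1504 genes at an unadjusted p below 0.05, against 1539), and the cause was not tested. Total counts as scaling moved the share of higher genes at an unadjusted p below 0.05 to 42.7%, against 54.9%. With the replicate number as a block 281 genes were called, 10 of them in the late pollen list, and AGL66 had a log2 fold change of 0.94 (95% interval 0.11 to 1.76) with an edgeR unadjusted p of 0.0309 and adjusted p of 0.139. Over the genes tested, the differences between replicates 1 and 2 correlated between genotypes with r = 0.38. The labels state no pairing, and whether libraries of the same number share more than that number was not tested. With the SRF-type box 0 of 5 members and 1 of 27 late pollen promoters matched, and with 1 mismatch in the MEF2-type box 1 of 5 members (20.0%) and 19 of 27 late pollen promoters (70.4%), beside 33.6% of all protein-coding promoters. Between 39 and 120 counts in ndx1-4 and 29 to 67 in Col-0 limit the precision of AGL66 and AGL104.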
